A study of Mus musculus with 4 samples.

Results

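This account is about 10 genes best known from B cells, macrophages and dendritic cells whose transcripts were read in sorted regulatory T cells: Cd22, Cd79a, Cd79b, Blk, Bank1, Cybb, Cd68, Ctss, Cst3 and Dnase1l3. They were chosen by name, with earlier results of the same arrays in view, and the differences between follicular and other regulatory T cells were among the values that led to the choice. Every value below is therefore a description, and no test is attached to it. The genes were found through 11 probes that the platform annotation assigns to 1 gene symbol each, with 2 probes for Cst3 and 1 for every other member. They are 10 of the 22180 genes measured.

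CD4 T cells expressing FoxP3 were sorted on day 7 after mice were immunized with NP-OVA, a hapten coupled to ovalbumin, in CFA (complete Freund's adjuvant). KO TFR cells were the PD1+ CXCR5+ YFP+ follicular regulatory cells of Prdm1 fl/fl FoxP3 YFP-Cre mice, and WT TFR cells were the same population of FoxP3 YFP-Cre mice. KO non-TFR and WT non-TFR cells were the CXCR5- YFP+ cells of each genotype. All mice of the 4 groups carried the YFP-Cre allele, so the WT mice differ from unmanipulated animals in that respect. Cre comes from FoxP3, so the floxed Prdm1 alleles are its target in FoxP3-expressing cells and not in the B cells or myeloid cells of the same animal. The sources used here do not give the animals' age or sex, or how many were pooled for an array. Each group was 1 Affymetrix Mouse Gene 2.0 ST array. No difference between groups has a replicate check, and precision is limited by having 4 arrays in all.

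Levels are normalized log2 intensities and differences are log2 differences between a pair of arrays. A difference of 1 is 2-fold. The median of all genes, 5.91, is used as the limit below which a level was not shown to be above background. No fold is given where the dimmer array lay below it. Levels of different genes are not compared, because probes differ in brightness. The target gene Prdm1 read 7.32 in KO TFR, 8.21 in WT TFR, 7.59 in KO non-TFR and 7.80 in WT non-TFR cells, and the probes' position relative to the deleted exons is not given. The T cell label held: Cd3e, the epsilon chain of the T cell receptor complex, lay between 12.93 and 13.04 and Foxp3 between 11.87 and 12.45. The genes of both surface proteins that set the TFR gate were measured as well. Cxcr5 read 10.39 in KO TFR, 9.52 in WT TFR, 8.90 in KO non-TFR and 8.06 in WT non-TFR cells, and Pdcd1, the gene of PD1, read 10.68 in KO TFR, 9.86 in WT TFR, 8.96 in KO non-TFR and 7.44 in WT non-TFR cells. They differed by population and also by genotype within a population, by 0.87 (Cxcr5) and 0.82 (Pdcd1) within TFR cells and by 0.84 and 1.52 within non-TFR cells, KO minus WT.

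The B cell antigen receptor consists of surface immunoglobulin and the signalling chains CD79a and CD79b. SRC family kinases such as BLK phosphorylate these chains, BANK1 is a scaffold downstream of them, and CD22 is a sialic acid binding receptor that restrains the signal. In phagocytes, gp91phox, the product of Cybb, is the catalytic subunit of the NADPH oxidase. CD68 is a glycoprotein of late endosomes and lysosomes, cathepsin S cuts the invariant chain of MHC class II, cystatin C inhibits such proteases, and DNASE1L3 is a secreted nuclease that degrades DNA in chromatin. TFR cells live beside B cells and macrophages in the follicle, so RNA of those cells can enter a sort. In bulk RNA, fewer cells of a type and less RNA per cell cannot be told apart.

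The 10 genes divided into a set of 4 with wide differences and a set of 6 with narrow ones. Cd22, Dnase1l3, Cybb and Cd68 spanned 3.28, 4.02, 2.42 and 1.70 over the 4 arrays. The other 6 spanned less than 1, from 0.15 for the brighter Cst3 probe to 0.88 for Bank1. Each of the 4 was highest in KO TFR, next in WT TFR, then in KO non-TFR and lowest in WT non-TFR cells. The gate genes Cxcr5 and Pdcd1 had this order too, and their part in the member differences was not tested. The order is common on these arrays. Of the 1614 genes that spanned at least 1, 596 (36.9%) had it. Without replicates there is no spread to say which neighbours in the order differ.

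Promoters are shown for Cd22, Cybb and Cd68, the members of the wide set that have an entry in the RefSeq promoter table (GRCm38.p6). Of the 10 members 7 matched the table, and Blk, Cd79b and Dnase1l3 were not matched. Each window has 250 bases before and 50 after a listed start site, which is base 251. Capitals mark GAGGAA, or TTCCTC where it lies on the other strand, the purine-rich core bound by PU.1, an ETS family factor of myeloid and B cells. The Cd22 window is chr7:30878979-30879278, the Cybb window chrX:9469275-9469574 and the Cd68 window chr11:69666121-69666420, all on the minus strand and printed 5′ to 3′.
Cd22: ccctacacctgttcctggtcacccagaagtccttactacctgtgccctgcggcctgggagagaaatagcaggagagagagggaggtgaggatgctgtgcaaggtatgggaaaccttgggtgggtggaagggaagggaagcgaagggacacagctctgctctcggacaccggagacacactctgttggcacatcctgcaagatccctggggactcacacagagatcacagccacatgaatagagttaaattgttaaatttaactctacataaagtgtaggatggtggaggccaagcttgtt
Cybb: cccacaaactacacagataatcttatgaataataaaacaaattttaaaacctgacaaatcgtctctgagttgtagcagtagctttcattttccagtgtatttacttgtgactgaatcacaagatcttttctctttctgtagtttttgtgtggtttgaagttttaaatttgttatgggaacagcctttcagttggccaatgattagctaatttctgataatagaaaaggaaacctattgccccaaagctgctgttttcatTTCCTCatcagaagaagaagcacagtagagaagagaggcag
Cd68: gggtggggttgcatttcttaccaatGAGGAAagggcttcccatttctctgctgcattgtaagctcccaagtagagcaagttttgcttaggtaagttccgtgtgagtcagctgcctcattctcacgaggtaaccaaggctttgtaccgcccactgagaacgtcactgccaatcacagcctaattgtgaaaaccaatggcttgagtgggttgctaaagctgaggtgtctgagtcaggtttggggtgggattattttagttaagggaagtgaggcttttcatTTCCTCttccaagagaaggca
The motif was found at base 260 of the Cybb window and at bases 26 and 280 of the Cd68 window, counted from the 5′ end, and not in the Cd22 window. Among the 7 member windows 5 held it, and 28.3% of all 32851 windows of that length did. A match is a description of letters and not a binding site. Spi1, the gene of PU.1, read 5.70 in KO TFR, 5.65 in WT TFR, 5.82 in KO non-TFR and 5.72 in WT non-TFR cells, below the limit on every array.

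Cd22 was the member of the B cell receptor group with wide differences. It read 9.27 in KO TFR, 8.27 in WT TFR, 7.04 in KO non-TFR and 5.99 in WT non-TFR cells. The arrays form an even staircase, with population as the larger step and genotype as the smaller one. In the KO, Cd22 was 2.22 higher (4.67-fold) in the TFR array, where it ranked 37 of 22180 genes, and in the WT it was 2.28 higher (4.85-fold) and ranked 65. It was 1.00 higher in the KO than in the WT within TFR cells (2.00-fold, rank 64) and 1.06 higher within non-TFR cells (2.08-fold, rank 76). The population difference of the KO minus that of the WT was -0.05, so each step had nearly the same size at both levels of the other factor.

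The signalling chains of the receptor that CD22 restrains did not follow Cd22. Cd79a read 5.37 in KO TFR, 5.59 in WT TFR, 5.64 in KO non-TFR and 5.69 in WT non-TFR cells, below the limit on all 4 arrays. Cd79b lay above the limit throughout, at 8.19 in KO TFR, 8.42 in WT TFR, 8.35 in KO non-TFR and 8.08 in WT non-TFR cells. Its largest difference between any pair of arrays was 0.33, the TFR minus non-TFR difference of the WT, and that of the KO was -0.16.

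The kinase gene Blk passed the limit in KO TFR cells only, with 6.11 there, 5.28 in WT TFR, 5.44 in KO non-TFR and 5.34 in WT non-TFR cells. The KO minus WT difference within TFR cells was 0.83 by the measured values, and 0.20 when values below the limit were set to it. Bank1, the scaffold gene, ran the other way from Cd22 between populations. It read 6.06 in KO TFR, 6.32 in WT TFR, 6.95 in KO non-TFR and 6.63 in WT non-TFR cells. Its TFR minus non-TFR difference was -0.88 in the KO and -0.31 in the WT. The KO difference lay just outside the middle 95% of all genes, which ran from -0.82 to 0.95. KO minus WT was -0.26 for Bank1 within TFR cells and 0.31 within non-TFR cells, the latter in the direction of Cd22.

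Cybb, the oxidase gene, read 10.73 in KO TFR, 10.33 in WT TFR, 9.72 in KO non-TFR and 8.32 in WT non-TFR cells. WT non-TFR cells stood apart at the low end. The TFR level of Cybb exceeded the non-TFR level by 1.01 in the KO (2.02-fold, rank 466) and by 2.01 in the WT (4.04-fold, rank 98). The genotypes differed by 0.40 within TFR cells and by 1.40 within non-TFR cells, where Cybb ranked 17 of 22180 genes (2.65-fold higher in the KO).

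Cd68 had the opposite shape, with KO TFR cells apart at the high end. It read 9.17 in KO TFR, 7.97 in WT TFR, 7.59 in KO non-TFR and 7.47 in WT non-TFR cells. TFR cells were 1.58 higher than non-TFR cells in the KO (2.998-fold, rank 135) and 0.50 higher in the WT. The KO was 1.20 higher than the WT within TFR cells (2.30-fold, rank 35) and 0.12 higher within non-TFR cells. The population difference of the KO minus that of the WT was 1.09 for Cd68 and -1.003 for Cybb. Over all genes, 0.302% had a value of at least 1 and 0.505% one of at most -1, and these values were not tested.

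The protease gene Ctss was bright on every array and slightly lower in TFR cells, with 11.64 in KO TFR, 11.73 in WT TFR, 12.16 in KO non-TFR and 12.03 in WT non-TFR cells. Its population differences were -0.52 in the KO and -0.30 in the WT. Cst3, the gene of the protease inhibitor cystatin C, was nearly flat on its brighter probe, at 10.90 in KO TFR, 10.77 in WT TFR, 10.93 in KO non-TFR and 10.91 in WT non-TFR cells. The dimmer Cst3 probe gave 7.08 in KO TFR, 7.52 in WT TFR, 7.33 in KO non-TFR and 7.24 in WT non-TFR cells. The probes disagree on the sign of the KO minus WT difference within TFR cells, 0.12 on the brighter and -0.44 on the dimmer, and no direction is given for Cst3.

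Dnase1l3, the secreted nuclease gene, had the widest span of the 10. It read 9.68 in KO TFR, 8.64 in WT TFR, 6.65 in KO non-TFR and 5.66 in WT non-TFR cells. The WT non-TFR level lay below the limit and the other 3 above it. TFR cells were 3.04 higher than non-TFR cells in the KO (8.20-fold), rank 5 of 22180 genes. In the WT the measured difference was 2.98, and 2.73 with the WT non-TFR level set to the limit. The genotype difference was 1.04 within TFR cells (2.06-fold, rank 54). Within non-TFR cells it was 0.99 as measured and 0.74 with the limit. The population difference of the KO minus that of the WT was 0.05 as measured and 0.30 with the limit, so it rests on a level not shown to be above background.

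**Figure D1:**
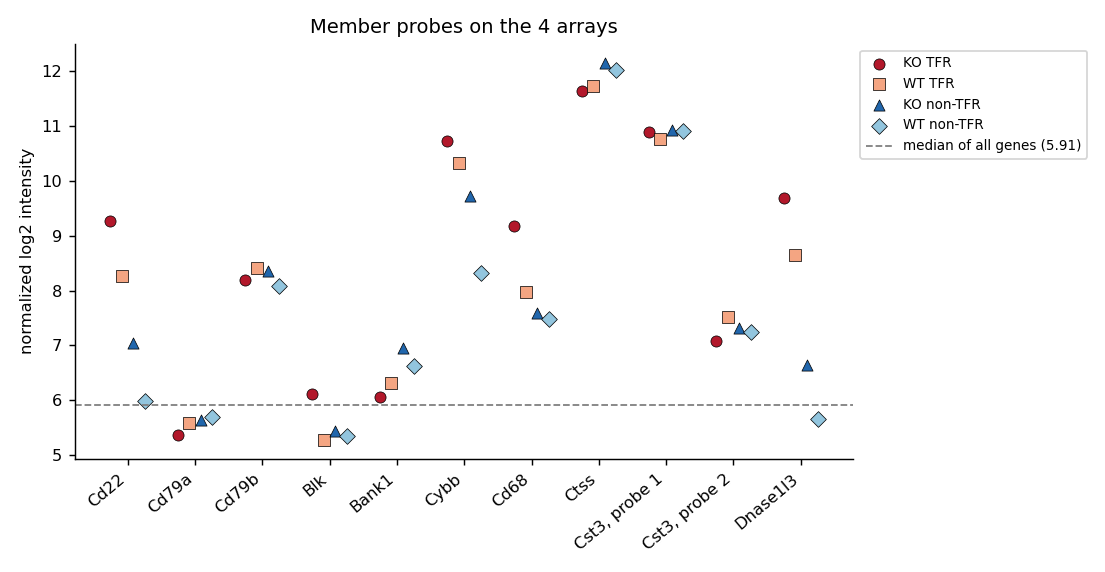
Normalized log2 intensity (vertical axis) of each member probe on the KO TFR, WT TFR, KO non-TFR and WT non-TFR arrays, 1 point an array and no error bars because each group is 1 array. Cd22, Cybb, Cd68 and Dnase1l3 descend from KO TFR to WT non-TFR, whereas both chains of the B cell receptor, Ctss and Cst3 each span 0.52 or less on a probe; the dashed line is the median of all genes, 5.91.

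Counted over the 10 genes, 4 were at least 2-fold higher in TFR cells of the KO (Cd22, Cybb, Cd68 and Dnase1l3), beside 2.23% of all genes, and 3 in the WT (all of these but Cd68), beside 2.69%. Genes were counted by the measured difference, whether or not the dimmer array lay above the limit. These contrasts helped to choose the genes, and nothing is read from the shares. No member was 2-fold lower in either, where 1.18% of all genes were in the KO and 1.18% in the WT. The median difference of the 10 was 0.32 in the KO and 0.14 in the WT, beside 0.00 and 0.01 over all genes.

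Between genotypes, 3 members were at least 2-fold higher in KO than in WT TFR cells (Cd22, Cd68 and Dnase1l3), beside 0.289% of all genes. In non-TFR cells there were 2 (Cd22 and Cybb), beside 0.433%. The genes were chosen with earlier results of the same arrays in view, so nothing is read from these shares either. None was 2-fold lower, beside 0.162% of all genes in TFR and 0.0766% in non-TFR cells. Cd22 lay at the 2-fold limit within TFR cells and at 0.99 under 2 other normalizations. The comparisons share arrays, each array entering 2 of the 4, so their values are given side by side and are not independent.

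**Figure D2:**
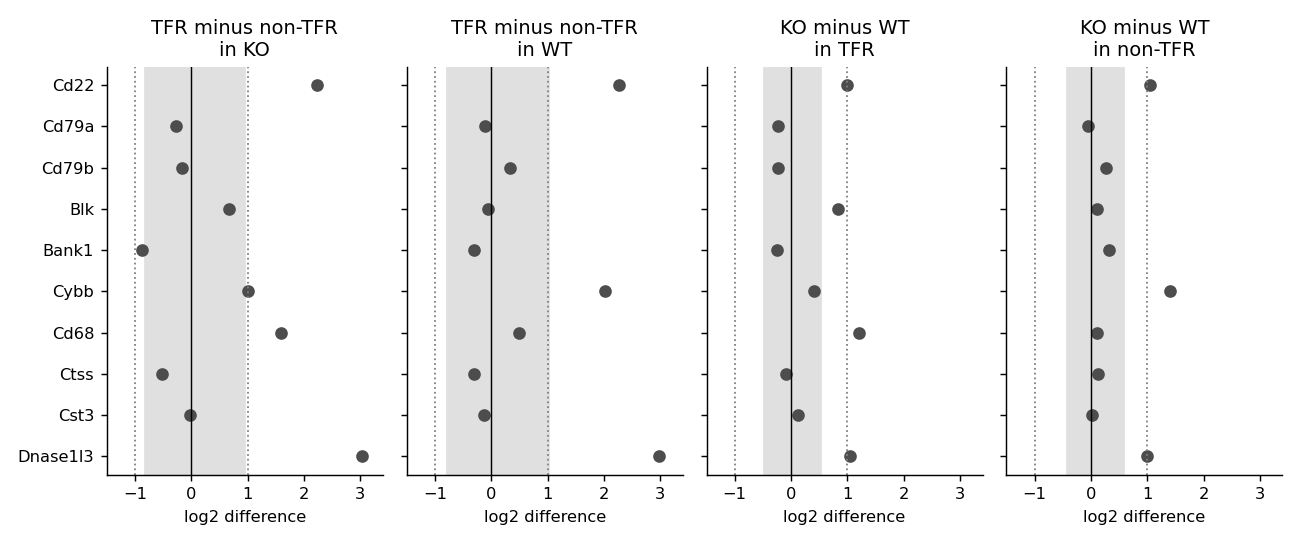
Log2 difference (horizontal axis) of the brightest probe of each member in the 4 comparisons, 1 point a gene. Grey bands are the middle 95% of all 22180 genes and dotted lines mark 2-fold. Cd22 and Dnase1l3 lie right of the band in all 4 panels, Cybb in 3 (not KO minus WT in TFR), Cd68 in the KO population panel and the TFR genotype panel, and Blk in the TFR genotype panel. Bank1 lies left of it in the KO population panel.

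The genes whose 4 levels moved most like each of these 4 members were found by the Euclidean distance between centred profiles among 10206 genes whose mean over the arrays lay above the limit. For Cd22 they were Tmem63c (distance 0.20), the adaptor gene Gab2 (0.21) and the keratin gene Krt17 (0.36). For Cybb they were Ttc39c (0.10), the MHC class II chaperone gene H2-DMb2 (0.15) and Susd2 (0.17). For Cd68 they were the transcription factor gene Arnt2 (0.24), the matrix protein gene Npnt (0.26) and the syntaxin gene Stx11 (0.26). For Dnase1l3 they were Sccpdh (0.31) and the mitotic kinase genes Pbk (0.56) and Cdk1 (0.57), at larger distances. The genes nearest to Cybb and Cd68 lay above the limit on every array. Each of the 6 nearest to Cd22 and Dnase1l3 lay below it on the WT non-TFR array, at 4.57 to 5.72, and Gab2 on the KO non-TFR array too (5.64), as Dnase1l3 itself did on the WT non-TFR array. Those distances rest partly on levels not shown to be above background. With 4 arrays, many genes can share a profile.

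**Figure D3:**
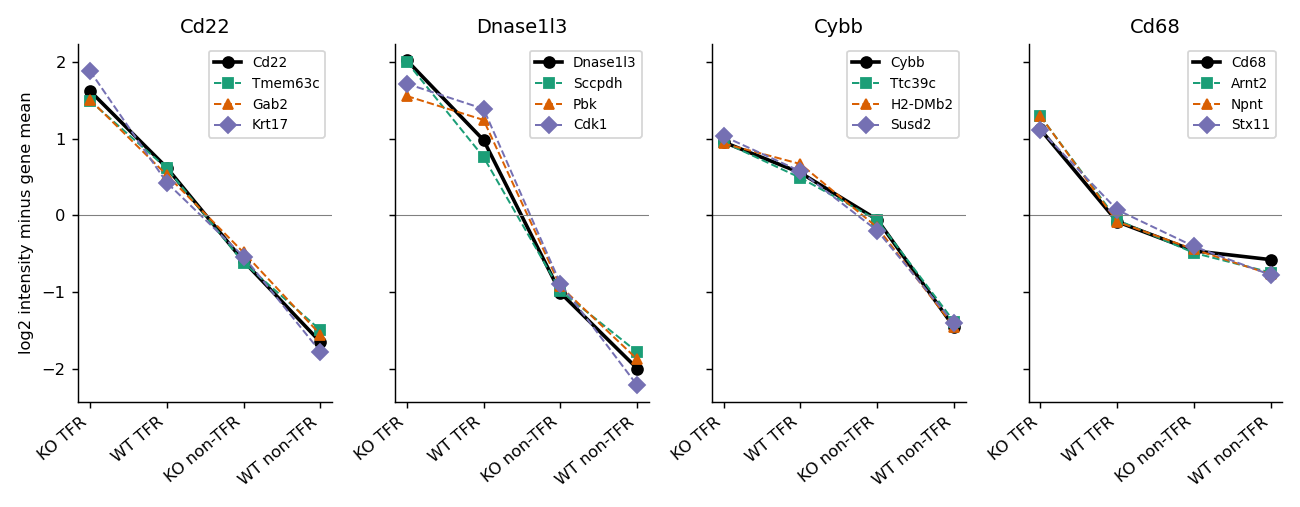
Log2 intensity minus the gene's own mean over the 4 arrays (vertical axis) for Cd22, Dnase1l3, Cybb and Cd68 in black and the 3 genes nearest to each in colour, with lines joining the values of a gene. Cd22 and Dnase1l3 descend in steps, Cybb drops at WT non-TFR, and Cd68 stands high in KO TFR alone.

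Markers of B cells were measured beside the members, since B cells express Cd22, Cd79a, Cd79b, Blk and Bank1. Of 21 listed genes 18 were measured, and 10 lay below the limit on every array. The limit is the median of all genes, so 49.5% (KO TFR) to 50.7% (WT non-TFR) of all genes lie below it on a given array. Counts below the limit, here and for the lists that follow, are to be read beside that share. Ms4a1, the gene of CD20, read 3.98 in KO TFR, 4.02 in WT TFR, 4.07 in KO non-TFR and 4.12 in WT non-TFR cells. These levels lie below the limit and have no order. Ebf1, a transcription factor that founds the B cell lineage, lay between 4.42 and 4.67, and Cr2, the complement receptor of mature B cells, between 4.68 and 4.79.

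Some listed B cell genes did differ in the direction of Cd22. Pax5, the B lineage factor, read 6.10 in KO TFR, 5.69 in WT TFR, 5.18 in KO non-TFR and 5.04 in WT non-TFR cells, above the limit in KO TFR only. Pou2af1, a coactivator of octamer factors, was 1.30 higher in TFR cells of the KO and 0.87 higher in those of the WT. It was the 1 gene of the 18 that was 2-fold higher in the KO, and there was none in the WT. Fcmr, the IgM Fc receptor gene, was 0.58 and 0.71 higher, in the KO and WT, whereas Ralgps2 differed by -0.54 and -0.79.

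The immunoglobulin heavy chain gene Ighm was bright on all arrays, with 13.31 in KO TFR, 13.12 in WT TFR, 13.05 in KO non-TFR and 12.58 in WT non-TFR cells, the same order as Cd22 with smaller steps. The summed linear intensity of the 18 genes was 13348 in KO TFR, 12154 in WT TFR, 12079 in KO non-TFR and 9568 in WT non-TFR cells, a sum set mainly by the brightest probes. Without the brightest gene, Ighm, the sums were 3202 in KO TFR, 3231 in WT TFR, 3607 in KO non-TFR and 3459 in WT non-TFR cells. Without Cd37 as well, a tetraspanin gene and the next in brightness, they were 1257 in KO TFR, 1217 in WT TFR, 1124 in KO non-TFR and 1149 in WT non-TFR cells. The genes left out were chosen after their values were seen, and the order of TFR and non-TFR cells turned with each, so no direction is given for the list. The median difference of the list was 0.05 in the KO and 0.12 in the WT, beside 0.00 and 0.01 over all genes. The part of B cell RNA in the Cd22 difference was not tested.

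Markers of macrophages and monocytes were mostly dim, with 19 of 22 measured genes below the limit on every array. Csf1r, the receptor that macrophages need to survive, lay between 5.21 and 5.56, Adgre1, the gene of F4/80, between 4.33 and 4.73, and Lyz2, the myeloid lysozyme, between 4.08 and 4.46. C1qa was near the limit, at 5.85 in KO TFR, 6.04 in WT TFR, 5.96 in KO non-TFR and 5.84 in WT non-TFR cells. The summed intensity of the list was 881 in KO TFR, 867 in WT TFR, 872 in KO non-TFR and 848 in WT non-TFR cells. Its median population difference was 0.06 in the KO and 0.10 in the WT, taken mostly over genes below the limit. No listed gene was 2-fold higher in TFR cells of the KO or the WT, and 2 were 2-fold lower in the KO, Lyz1 and Ms4a7, both below the limit on every array. The part of myeloid RNA in the Cybb, Cd68 and Dnase1l3 differences was not tested.

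Of 15 measured conventional dendritic cell genes 11 lay below the limit on every array, among them Itgax (4.83 to 4.98), the gene of CD11c, and the growth factor receptor gene Flt3 (4.66 to 4.79). Their summed intensity was 1314 in KO TFR, 1422 in WT TFR, 1260 in KO non-TFR and 1064 in WT non-TFR cells. Without the brightest, Cd209a, they were 1050 in KO TFR, 1049 in WT TFR, 913 in KO non-TFR and 761 in WT non-TFR. Without Cd83 as well they were 743, 721, 590 and 574 in the same order of arrays. Each time, the sums of both TFR arrays exceeded those of both non-TFR arrays. Naaa, the brightest gene left, stayed in all of these sums. It read 8.36 in KO TFR, 8.25 in WT TFR, 7.63 in KO non-TFR and 7.72 in WT non-TFR cells. How far the order of the sums rests on Naaa was not tested. Naaa, Cd83 and Cd209a lay above the limit on every array. TFR minus non-TFR was 0.73 (KO) and 0.53 (WT) for Naaa, -0.08 and 0.81 for Cd83, and -0.39 and 0.30 for Cd209a. The median population difference of the list was 0.05 in the KO and 0.30 in the WT, and 9 of the 15 genes were higher in TFR cells of the KO and 12 in those of the WT. Tlr3 was the 1 gene of the list with a difference of at least 1 in the KO, below the limit on every array, and there was none in the WT. Plasmacytoid dendritic cells express Dnase1l3 in mice. The summed intensity of 9 of their genes was 2107 in KO TFR, 2628 in WT TFR, 2936 in KO non-TFR and 3403 in WT non-TFR cells. The brightest, Bst2, is an interferon-induced gene that many cells express. Without Bst2 the sums were 679 in KO TFR, 751 in WT TFR, 666 in KO non-TFR and 631 in WT non-TFR cells, so the direction of the sum rests on Bst2. The median population difference of the 9 genes was -0.16 in the KO and -0.34 in the WT. Lower in TFR cells were 6 of the 9 in the KO and 5 in the WT. The part of dendritic cell RNA in the Dnase1l3 difference was not tested. None of 8 plasma cell, 13 neutrophil or 10 stromal genes was 2-fold higher in TFR cells of the KO or of the WT. Of 9 germinal centre B cell genes 1 was, Mybl1, by 1.29 in the KO and 1.85 in the WT, and it lay below the limit on every array. Basp1 of the same list was 2-fold lower in TFR cells, at -1.04 in the KO and -1.42 in the WT, and lay above the limit on every array. Of 8 NK and CD8 T cell genes Nkg7 was 2-fold higher in the WT, with levels above the limit. Klrb1c and, of 3 erythroid and platelet genes, Ppbp also differed by at least 1 in the WT, but both WT levels of each lay below the limit. Nkg7, Klrb1c and Ppbp were not 2-fold higher in the KO. The T cell identity list was level, with 12 of 12 measured genes above the limit and medians of 11.75 in KO TFR, 11.83 in WT TFR, 11.86 in KO non-TFR and 11.95 in WT non-TFR cells.

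**Figure D4:**
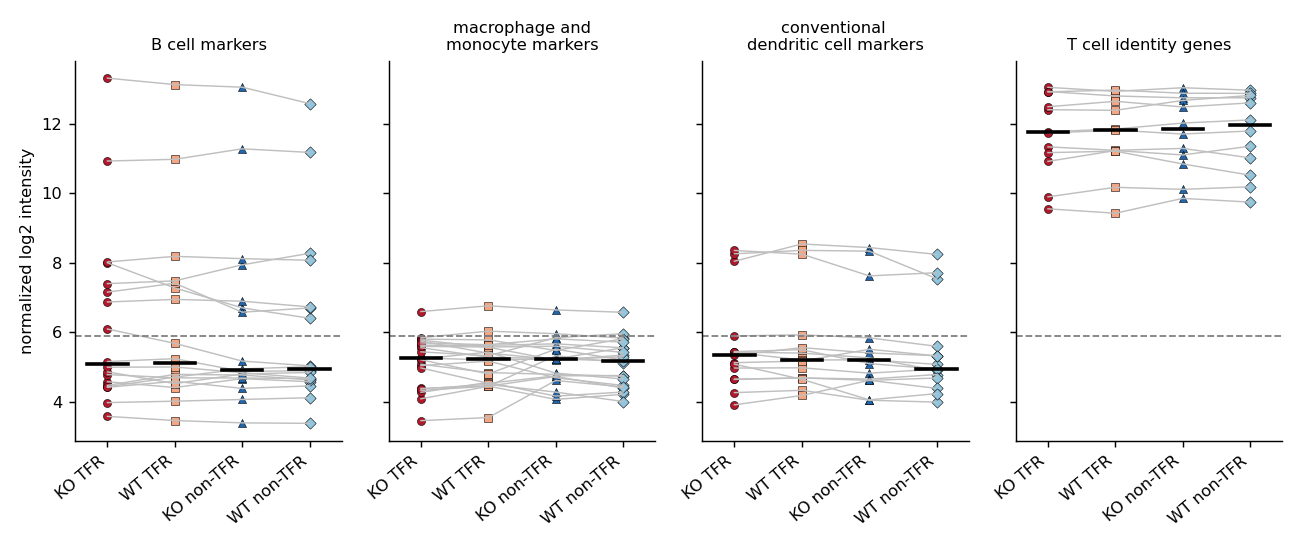
Normalized log2 intensity (vertical axis) of each measured gene of 4 marker lists on the 4 arrays, with grey lines joining the values of a gene, black bars at the list medians and a dashed line at the median of all genes. Most B cell, macrophage and dendritic cell markers lie below the dashed line on every array, Ighm is the brightest point of the B cell panel, and all T cell identity genes lie above 9.

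The pathways of the members were read in lists of their other genes. Among 20 measured partners of B cell receptor signalling the median population difference was 0.01 in the KO and -0.02 in the WT, and 1 gene was 2-fold higher in the KO and none in the WT. That gene was Pik3ap1, which encodes BCAP, an adaptor related to BANK1, with 7.91 in KO TFR, 7.92 in WT TFR, 6.91 in KO non-TFR and 7.06 in WT non-TFR cells. The tetraspanin gene Cd81 was 0.51 and 0.63 higher in TFR cells, and Malt1, a paracaspase that T cells use as well, 0.72 and 0.32 higher, in the KO and WT. Vav3 went the other way, at -0.70 in the KO and -0.05 in the WT, and lay above the limit on every array. Of the 20 genes 10 were lower in TFR cells of the KO and 11 in those of the WT. Syk, Btk and Blnk, which carry the receptor signal in B cells, lay below the limit on all arrays. The 7 other sialic acid binding lectins of the CD22 family, Siglecg among them, also lay below it throughout. None of the 4 measured SRC family kinases was 2-fold apart, while 3 were higher and 1 lower in TFR cells of each genotype. Fyn, the bright T cell member, was 0.50 higher in TFR cells of the KO and 0.37 higher in those of the WT. Fgr was 0.51 and 0.49 higher, in the KO and WT, with both TFR levels above the limit and both non-TFR levels below it.

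The partner subunits of the NADPH oxidase did not follow Cybb. Cyba, which encodes p22phox, the membrane partner of gp91phox, read 12.09 in KO TFR, 12.32 in WT TFR, 12.39 in KO non-TFR and 12.47 in WT non-TFR cells. Ncf1, which encodes the organizer p47phox, differed between TFR and non-TFR cells by -0.59 in the KO and -0.49 in the WT. Of the 5 measured subunits none was 2-fold apart in either genotype.

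MHC class II genes, which the same antigen-presenting cells express, were mixed beside Cybb. H2-DMb2 read 8.57 in KO TFR, 8.31 in WT TFR, 7.48 in KO non-TFR and 6.18 in WT non-TFR cells. Its assignment is uncertain, since a share of its signal from its close neighbour H2-DMb1 was not tested. On its own probe H2-DMb1 lay between 3.97 and 4.44, below the limit on every array. Of the 9 measured genes 2 were 2-fold higher in TFR cells of the KO (H2-DMb2 and H2-Eb1) and 1 in those of the WT (H2-DMb2). The median population difference of the list was -0.03 in the KO and 0.47 in the WT. Between genotypes, 2 of the 9 were 2-fold higher in KO than in WT non-TFR cells, H2-DMb2 by 1.30 and H2-Ab1 by 1.04, beside 1.40 for Cybb, and none was in TFR cells. Ciita, the class II transactivator, differed by -0.36 (KO) and -0.45 (WT) between populations. The part of antigen-presenting cell RNA in these differences was not tested.

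The families of Ctss, Cst3, Cd68 and Dnase1l3 showed no common direction. Of 14 cathepsins and lysosomal proteins 9 were higher in TFR cells of the KO and 8 in those of the WT, none of them 2-fold higher. Lower were 5 in the KO and 6 in the WT. The 2 brightest, Ctsb and Ctsz, had the order of the arrays seen for Cd68. Ctsb was 0.61 and 0.52 higher in TFR cells, and Ctsz 0.62 and 0.34 higher, in the KO and WT. Ctsw, a cathepsin of cytotoxic lymphocytes, was the 1 gene 2-fold lower, at -1.48 in the KO and -1.56 in the WT, a larger difference in the direction of Ctss. The asparaginyl protease gene Lgmn was highest in KO TFR cells, as Cd68 was, with 8.53 there, 7.81 in WT TFR, 7.77 in KO non-TFR and 8.20 in WT non-TFR cells. Among 5 other cystatins, Cst7 was 0.20 higher in TFR cells of the KO and 1.49 higher in those of the WT. None of the 6 other measured nucleases was 2-fold apart, and Dnase1l1, a related nuclease gene, was 0.24 and 0.28 higher in TFR cells of the KO and WT, beside 3.04 and 2.98 for Dnase1l3.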

How the data were processed

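Biotin-labelled material from total RNA of the 4 sorted populations was read on Mouse Gene 2.0 ST arrays (Affymetrix), per the labels. The deposited table holds 1 log2 value per probe and array, as the authors made it; values run from 2.23 to 13.8, and from this range the scale was taken to be log2. The submitters' processing notes list MAS5 with no version or role, and no other step is stated in the labels. Array medians of the deposited values spanned 0.105, and all 41345 probes were quantile normalized with limma 3.58.1 in R 4.3.3, which removes any difference common to most genes. Of the probes 23521 had 1 gene symbol. The brightest probe stood for each of 22180 genes, of which 1082 had several, and every probe of a member is reported. The table gives no detection calls.

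With 1 array a group there is no test, and each comparison is a log2 difference. The members, the 19 gene lists and the limits were chosen with earlier results of these data known. Genes named were all members, markers fixed as defining, and the 3 nearest profiles per member of the wide set. A rule also marked up to 4 genes per list with the largest population difference, and only some of these are named. Which of them to name, and the other list genes named here, were chosen after their values were seen. A defining marker is not reported here. Alternatives were other normalizations, the mean of all probes, a floor, a filter and a 1.5-fold threshold. The counting step was tested on simulated data.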

Additional observations from a re-analysis of the deposited data

Results flagged for a closer look

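Ctsl, the gene of cathepsin L, ran in opposite directions in the genotypes and in the populations, by at least 0.5 each way. It read 7.92 in KO TFR, 6.94 in WT TFR, 7.16 in KO non-TFR and 7.67 in WT non-TFR cells. TFR minus non-TFR was 0.76 in the KO and -0.72 in the WT, and KO minus WT was 0.97 in TFR and -0.51 in non-TFR cells. The difference between these differences was not tested. No member ran in opposite directions by this size.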

How the results depend on the processing

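Member differences under 6 alternative settings stayed near those reported. Cd22 ranged from 2.204 to 2.37 (TFR minus non-TFR, KO) and from 2.21 to 2.38 (WT), Dnase1l3 from 3.001 to 3.15 and from 2.73 to 3.10, Cybb from 0.97 to 1.11 and from 1.97 to 2.14, and Cd68 from 1.56 to 1.73 and from 0.41 to 0.61. Values near 2-fold crossed the limit: with 75th percentile centring Cybb was 0.97 (TFR minus non-TFR, KO), Cd22 0.99 (KO minus WT, TFR) and Dnase1l3 1.01 (KO minus WT, non-TFR; 0.74 with dim values set to the limit), and with quantile normalization over probes with 1 gene Cd22 was 0.99. Blk fell to 0.20 with the floor. The sign turned under 1 setting for Blk (TFR minus non-TFR, WT) and for Cst3 in 4 results, all of them within 0.21 of 0 there. As deposited, the median of all genes was 0.12 in the KO and 0.11 in the WT population comparison, and 2-fold lower genes numbered 156 against 262 (KO) and 172 against 261 (WT).

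With dim values set to the limit, 320 genes against 494 were 2-fold higher in TFR cells of the KO, 129 against 262 lower in the KO, 139 against 261 lower in the WT, and 22 against 36 lower in KO than in WT TFR cells. Over genes above the limit, 152 were lower in the KO and 151 in the WT. At 1.5-fold, 1 member (Bank1) against 0 was lower in TFR cells of the KO, and counts over all genes grew by construction to 1742 higher and 1527 lower (TFR, KO), 1927 and 1325 (TFR, WT), 402 and 275 (KO in TFR) and 541 and 225 (KO in non-TFR cells), where the 2-fold counts were 494 and 262, 596 and 261, 64 and 36, and 96 and 17. No paired analysis was possible because each comparison sets 1 array against 1 array and the groups share no second replicate number. An additive fit of genotype and population over all 4 arrays would leave 1 residual degree of freedom, set by the difference of the population differences in the report, and was not used as a test. With 1 array a group and no detection calls, levels below the limit have no measured order.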
